A study of Mus musculus with 12 samples.

Results

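The antioxidant response genes described here are 10 genes named by symbol. No cutoff on a measured value was set for them, but they were chosen with earlier results of these data known. They are the transcription factor gene Nfe2l2, its inhibitor gene Keap1, and the NRF2 target genes Slc7a11, Gclc, Gclm, Gsr, Txnrd1, Srxn1, Prdx1 and Nqo1. Of these 10, 9 had a row among the 14460 genes of the deposited table, and Nqo1 was not analysed here. All 9 had a mean level of at least 1 in normalised signal and were among the 12879 genes tested.

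RNA was sequenced from GFP-positive cells sorted from hearts of Cx3cr1GFP/+ mice aged 2-3 months, which carry GFP knocked into 1 copy of the chemokine receptor gene Cx3cr1. The 4 groups had 3 libraries each, described in the labels as independent biological replicates. Day 0 cells came from uninfarcted hearts of mice without surgery and passed a Ly6c-low, CX3CR1-high gate. Day 3 cells came from hearts 3 days after cryoinjury, in which the heart wall is frozen locally, and passed a Ly6c-high, CX3CR1-low gate. Day 7 and day 30 cells came from hearts 7 and 30 days after cryoinjury and passed the same gate as day 0. All groups therefore share the knock-in, which leaves 1 working copy of Cx3cr1, and time after injury and sorting gate cannot be told apart in any comparison with day 3. The labels do not say whether a library pools several hearts.

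Depth was 5828904 to 13199576 reads per library. The summed signal of 7 macrophage markers was 3203 to 3876 at day 0, 3524 to 3832 at day 3, 3398 to 4872 at day 7 and 2897 to 3038 at day 30, and none of the 7 was at 0. These sums hide opposite changes, since 3 of the 7 were higher and 3 lower at day 3 than at day 0. Csf1r had 1455 to 1849 at day 0 and 495 to 613 at day 3, and Cd68 had 362 to 409 and 911 to 1106. The 5 Ly6c-high monocyte markers summed to 199 to 397 at day 0, 2862 to 4124 at day 3, 420 to 817 at day 7 and 516 to 526 at day 30, and were highest in the Ly6c-high gate. Signal of 6 fibroblast markers ran from 37.5 to 110 at day 0, 281 to 375 at day 3, 530 to 2144 at day 7 and 154 to 157 at day 30. Of the 6, 4 were higher and 1 lower at day 3 than at day 0, and 4 were higher and 0 lower at day 7 than at day 0. The 6 cardiomyocyte markers summed to 69.0 to 365 at day 0, 7.44 to 11.7 at day 3, 75.4 to 199 at day 7 and 20.04 to 21.5 at day 30. All 6 were lower at day 3 and at day 30 than at day 0, and all 6 were higher at day 7 than at day 3. The 4 mast cell markers (Cma1, Cpa3, Mcpt4 and Tpsb2) summed to 19.6 to 36.7 at day 0, were all at 0 at day 3, and summed to 4.16 to 13.2 at day 7 and 0.283 to 0.702 at day 30. Erythroid markers summed to 15.7 to 139 at day 0, 3.31 to 23.8 at day 3, 19.7 to 60.7 at day 7 and 18.9 to 23.6 at day 30, and 3 of the 4 tested were lower at day 3 than at day 0. The part of these markers in the results was not tested. The first day 0 library and the second day 7 library stood apart from the others of their groups, and results that change without both are given with that value. The 3 day 30 libraries were closely alike: the mean chi-square of the reads per gene between them was 2.18 to 2.93, where sampling alone gives about 1, against 6.20 to 89.2 between pairs of the other groups. They were kept as 3 samples, and the calls at day 30 are also given with the 3 averaged as 1. Because these are bulk samples, fewer cells of a type and less RNA per cell cannot be told apart.

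NRF2, the protein of Nfe2l2, is a transcription factor that KEAP1 holds in the cytoplasm and marks for degradation through the CUL3 ubiquitin ligase. Oxidants and electrophiles modify cysteines of KEAP1, NRF2 then escapes degradation, pairs with a small MAF protein and binds antioxidant response elements near its target genes. The targets import cystine, build glutathione, and keep glutathione and thioredoxin reduced, and the pathway is known in macrophages for limiting oxidative damage during the oxidative burst and phagocytosis. NRF2 itself is controlled mainly through protein stability, so the mRNA level of Nfe2l2 is not a measure of its activity.

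The promoter sequences of some members whose mRNA differed between days are printed. A match of the antioxidant response element core as searched here can be seen in the stretches of Prdx1, Gclm and Txnrd1. Windows of 300 bases, 250 before and 50 after a RefSeq transcript start (GRCm38.p6), were available for 7 of the 9 members, in 9 windows. The antioxidant response element core, searched on both strands as TGACNNNGC, stood in 5 of the 9 windows and in 5 of the 7 members (Nfe2l2, Srxn1, Gclm, Prdx1 and Txnrd1). Of all 32851 windows, 12.4% held it. The AP-1 motif, searched on both strands as TGANTCA, stood in 2 of the 9 windows (Srxn1 and Prdx1) and in 7.81% of all windows. A match is a description of letters and not evidence of a bound factor. Printed 5′ to 3′ on the strand of the gene, with motif matches in capitals, are the bases of a window that lie before the transcript start and any annotated exon. They are Srxn1 at chr2:152105274-152105515 (plus strand), Prdx1 at chr4:116685349-116685543 (plus strand), Gclm at chr3:122245307-122245556 (plus strand), the window of Txnrd1 that holds the core, at chr10:82858956-82859178 (plus strand), and, as the member that differed most between day 3 and day 0 and held neither motif, Slc7a11 at chr3:50443615-50443863 (minus strand).
Srxn1: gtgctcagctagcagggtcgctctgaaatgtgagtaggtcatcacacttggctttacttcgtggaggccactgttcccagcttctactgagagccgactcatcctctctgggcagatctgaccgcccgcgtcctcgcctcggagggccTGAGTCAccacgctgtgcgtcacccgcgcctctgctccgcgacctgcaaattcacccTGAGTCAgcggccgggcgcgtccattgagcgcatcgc
Prdx1: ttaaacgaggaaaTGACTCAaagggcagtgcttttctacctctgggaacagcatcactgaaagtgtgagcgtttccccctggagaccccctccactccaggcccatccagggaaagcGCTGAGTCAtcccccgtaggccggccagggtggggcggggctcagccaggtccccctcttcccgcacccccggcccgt
Gclm: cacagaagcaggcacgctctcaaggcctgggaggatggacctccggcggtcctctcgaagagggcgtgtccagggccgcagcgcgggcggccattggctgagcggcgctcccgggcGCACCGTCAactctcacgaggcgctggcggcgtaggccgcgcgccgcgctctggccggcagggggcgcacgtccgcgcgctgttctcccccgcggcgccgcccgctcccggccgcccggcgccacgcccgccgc
Txnrd1: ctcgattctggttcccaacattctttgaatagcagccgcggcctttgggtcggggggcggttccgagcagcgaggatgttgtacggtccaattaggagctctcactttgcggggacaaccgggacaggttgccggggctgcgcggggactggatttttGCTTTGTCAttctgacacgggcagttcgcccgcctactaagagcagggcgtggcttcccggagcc
Slc7a11: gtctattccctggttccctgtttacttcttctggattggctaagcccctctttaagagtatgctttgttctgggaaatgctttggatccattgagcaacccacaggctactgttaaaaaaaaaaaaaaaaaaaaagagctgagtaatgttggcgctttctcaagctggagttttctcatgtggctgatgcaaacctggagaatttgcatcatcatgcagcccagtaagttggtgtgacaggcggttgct
In Prdx1 the core (GCTGAGTCA) began at base -133 from the transcript start and overlapped an AP-1 motif at -131, and another AP-1 motif stood at -237. In Srxn1 the stretch shown holds AP-1 motifs at -102 and -45, and its match of the searched core (GCTAGGTCA) lies at +29, outside the stretch. With the bases that follow, the motif at -45 reads TGAGTCAGC, with TGAG where the searched core has TGAC. Forms of the element with TGAG were not searched. The core of Gclm (GCACCGTCA) began at -134, that of Txnrd1 (GCTTTGTCA) at -92, and that of Nfe2l2 (TGACTCCGC) at -240. The windows of Slc7a11 and Keap1 held neither motif.

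**Figure D1:**
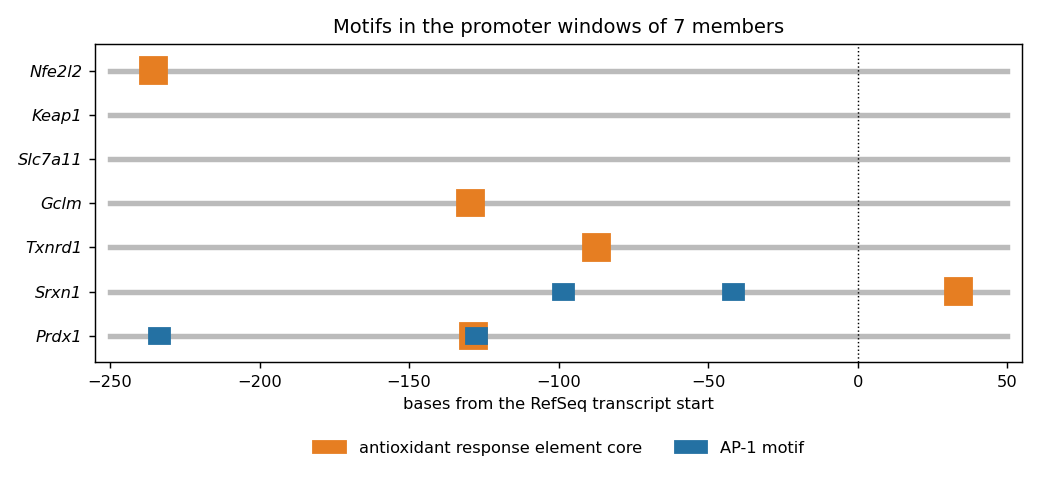
Positions of both motifs in the promoter windows of 7 members, in bases from the RefSeq transcript start (dotted line), with all windows of a member laid on 1 grey line. Orange blocks mark the antioxidant response element core and blue blocks the AP-1 motif. Cores appear in 5 members, Srxn1 and Prdx1 hold both motifs, and Keap1 and Slc7a11 hold neither.

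Compared with uninfarcted hearts, 6 of the 9 antioxidant response genes were higher in the day 3 cells and the other 3 did not pass the test (limma, adjusted p under 0.05 over all genes tested). The background was high, since 22.1% of all tested genes were higher and 22.1% lower at day 3 than at day 0. In 7 members the day 3 and day 0 libraries did not overlap, as in 55.4% of all genes. At day 7, 4 of the 9 were higher than at day 0, where 11.4% of all genes were higher and 10.2% lower. The libraries of 5 members did not overlap, against 32.2% of all genes. At day 30, 3 of the 9 were higher than at day 0, where 3.45% of all genes were higher and 2.73% lower, and 5 members did not overlap, against 40.8%. These 3 calls ended when the day 30 libraries were averaged as 1 sample. The median log2 fold change of the 9 was 0.90 at day 3, 0.50 at day 7 and 0.27 at day 30, each against day 0, while the median of all tested genes was -0.02, -0.02 and -0.01. The 3 comparisons share the day 0 libraries and are not independent of each other. Without the first day 0 and second day 7 libraries, 7, 5 and 4 members passed, and 6879, 2311 and 2504 genes in all. With all libraries, 5698, 2782 and 796 genes passed. The member added at day 30 was Gsr, which was lower (log2 fold change of -0.79, limma adjusted p = 0.0139). Over the 4 groups, 8 of the 9 members differed by the limma F test, against 63.9% of all genes tested.

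**Figure D2:**
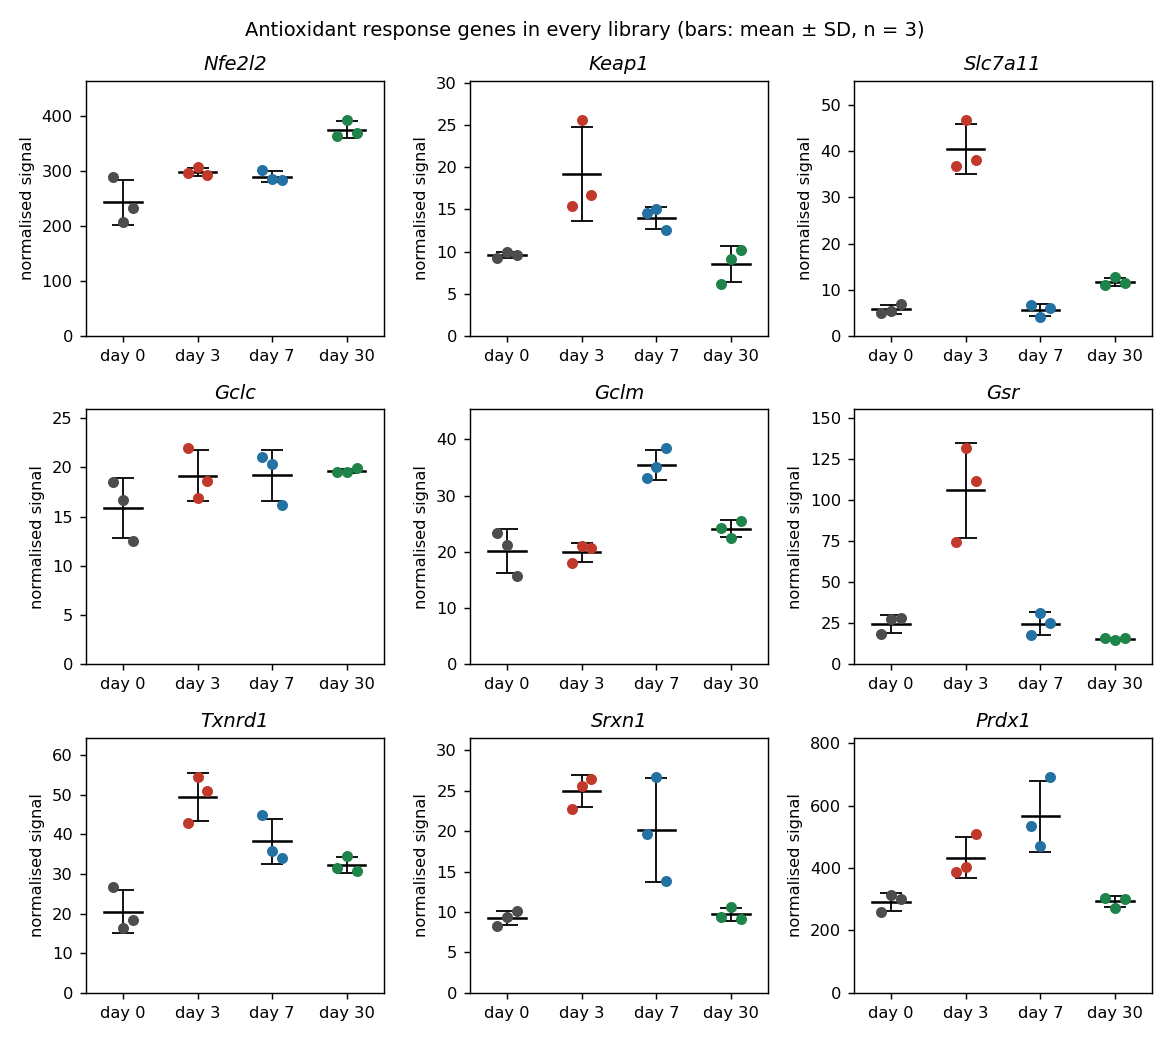
Normalised signal (vertical axis, linear, starting at 0) of the 9 members in each of the 12 libraries by day, with points for libraries and bars for the mean ± SD of 3. Slc7a11 and Gsr peak at day 3 (means of 40.5 and 106), Gclm and Prdx1 at day 7 (35.5 and 566), and Nfe2l2 is highest at day 30 (375).

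The transcription factor gene itself was among the more abundant members. Per kilobase of annotated exon, the mean signal over all libraries was 130 for Prdx1, 79.3 for Nfe2l2 and 15.6 for Gsr, and 1.14 to 5.67 for the other 6. Nfe2l2 (chr2:75675513-75704641, minus strand) had a signal of 288, 208 and 232 in the day 0 libraries, 295, 306 and 293 at day 3, 301, 285 and 283 at day 7, and 363, 392.2 and 368 at day 30. The 3 day 30 libraries were above all 9 others, and the days 3 and 7 overlapped. The mean was 375 ± 15.4 at day 30 and 243 ± 41.2 at day 0 (SD, n = 3 each), a log2 fold change of 0.64 ± 0.14 (SE, limma adjusted p = 0.0127). Against day 7, day 30 was higher by 0.37 on the log2 scale (adjusted p = 0.0432). Both calls were lost with the day 30 libraries averaged (adjusted p = 0.542 and 0.329), and the first also without day 0 library 2 or 3 or any 1 day 30 library (0.0552 to 0.0835). The day 30 against day 7 call ended in 11 of 26 alternatives, among them the replicate block (adjusted p = 0.0536) and leaving out day 0 library 3, day 3 or day 7 library 2 or 3, or any 1 day 30 library (0.0520 to 0.137). At day 3 the log2 fold change against day 0 was 0.31 (adjusted p = 0.0795). That comparison passed without the first day 0 library (0.44, adjusted p = 0.0177), without the second day 7 library (0.0390), without both (0.00226) and with DESeq2 (0.0420). Its fold change was -0.070 after quantile normalisation. Day 7 against day 0 gave 0.27 (adjusted p = 0.177), and passed only without both libraries (0.41, adjusted p = 0.0212).

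Keap1 (chr9:21229730-21239361, minus strand), which encodes the adaptor that targets NRF2 for degradation, had its highest group mean at day 3. Its signal was 9.24, 9.96 and 9.60 at day 0, 15.4, 25.6 and 16.7 at day 3, 14.5, 15.03 and 12.6 at day 7, and 6.16, 9.19 and 10.2 at day 30. All day 3 and day 7 libraries were above all day 0 and day 30 libraries, which overlapped each other. The mean was 19.2 ± 5.56 at day 3 and 9.60 ± 0.360 at day 0, and the log2 fold change was 0.90 ± 0.22 (adjusted p = 0.00393). At day 7 it was 0.50 against day 0, short of the threshold although the libraries did not overlap (adjusted p = 0.117). Relative to day 7, day 30 was lower, with a log2 fold change of -0.68 (adjusted p = 0.0243). This call was lost without the second day 7 library (0.0556), without that and the first day 0 library (0.0502), or without the first day 30 library (0.132). Keap1 shares 510 exon bases with the antisense gene Gm16754, whose mean signal was 1.89. Whether the counting used strand is not given in the sources used here, so reads in that stretch cannot be told apart.

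Glutathione synthesis starts from cysteine, and its import gene changed most. Slc7a11 (chr3:49892526-50443614, minus strand) encodes xCT, the light chain of the transporter that takes up cystine in exchange for glutamate. It had a signal of 5.02, 5.35 and 6.88 at day 0, 36.8, 46.8 and 38.0 at day 3, 6.66, 4.05 and 6.13 at day 7, and 10.996, 12.7 and 11.5 at day 30. The day 3 libraries stood far above all others, day 0 and day 7 overlapped, and day 30 lay between. The means were 40.5 ± 5.44 at day 3 and 5.75 ± 0.996 at day 0, which is 7.05-fold, and the log2 fold change of signal + 1 was 2.62 ± 0.21 (adjusted p = 8.34e-08). This pseudocount of 1 lowers the fold change of genes at such low levels. At day 7 Slc7a11 was lower than at day 3 by a log2 fold change of -2.66 (adjusted p = 1.48e-07), with a mean of 5.61 ± 1.38. At day 30 it averaged 11.7 ± 0.890, which was higher than at day 0 (0.92 ± 0.21, adjusted p = 0.0153) and than at day 7 (0.97, adjusted p = 0.00226). Both of these calls were lost with the day 30 libraries averaged (adjusted p = 0.542 and 0.0966), and the day 30 against day 0 call also without day 0 library 2 or any 1 day 30 library (0.0559 to 0.0910). The lowest library held 35 reads of Slc7a11.

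The longest annotated transcript of Slc7a11 holds a stretch that resembles the alpha tubulin genes, with 585 aligned bases at 92.5% identity to Tuba1b, so reads there can be shared between the genes. Between day 3 and day 0, Tuba1a was lower (log2 fold change of -0.69, adjusted p = 0.0358), Tuba1c was higher (1.06, adjusted p = 0.000348) and Tuba1b had -0.27 (adjusted p = 0.235). The part of these reads in the Slc7a11 values was not tested.

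The enzyme that commits cysteine to glutathione has a catalytic subunit, GCLC, and a modifier subunit, GCLM. Whether the courses of their mRNAs differed was not tested. Gclc (chr9:77754535-77794485, plus strand) had a signal of 18.5, 16.7 and 12.5 at day 0, 21.9, 16.9 and 18.7 at day 3, 21.04, 20.3 and 16.2 at day 7, and 19.5, 19.5 and 19.9 at day 30. The libraries of days 3 and 7 overlapped those of day 0, those of day 30 lay above them, and no comparison passed. The F test over the 4 groups gave an adjusted p of 0.386, the only one of the 9 above the threshold.

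Gclm (chr3:122245557-122270732, plus strand) was highest at day 7. It had 23.4, 21.2 and 15.8 at day 0, 18.01, 21.1 and 20.6 at day 3, 33.2, 35.0 and 38.4 at day 7, and 24.3, 22.5 and 25.5 at day 30, in signal. All day 7 libraries were above the 9 others, and day 3 overlapped day 0. The mean was 35.5 ± 2.67 at day 7 and 20.1 ± 3.92 at day 0, and the log2 fold change was 0.81 ± 0.17 (adjusted p = 0.00347). Day 7 was also above day 3, where the mean was 19.9 ± 1.68, by 0.80 on the log2 scale (adjusted p = 0.00126). Day 30 was lower than day 7, with a log2 fold change of -0.54 (adjusted p = 0.0196), a call lost without the first or second day 30 library (0.0575 and 0.0777). Gclm shares 296 exon bases with Gm17494 on the opposite strand and 244 with the pseudogene Gm6061 on its own strand, with mean signals of 2.71 and 1.90.

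Gsr (chr8:33652523-33698163, plus strand) encodes glutathione reductase, which turns oxidised glutathione back to its reduced form with NADPH. Its signal was 18.5, 27.9 and 28.1 at day 0, 74.7, 132 and 112 at day 3, 18.02, 31.7 and 24.98 at day 7, and 15.9, 15.1 and 16.4 at day 30. Like Slc7a11, it was high only in the day 3 libraries, with day 7 overlapping day 0, but its day 30 libraries were below all others. The mean of 106 ± 29.0 at day 3 against 24.8 ± 5.49 at day 0 gave a log2 fold change of 2.04 ± 0.24 (adjusted p = 4.67e-06). Day 7 was lower than day 3 by a log2 fold change of -2.05 (adjusted p = 7.08e-06). At day 30 the log2 fold change was -0.60 against day 0 (adjusted p = 0.147) and -0.59 against day 7 (adjusted p = 0.0575). The first passed without the first day 0 and second day 7 libraries (-0.79, adjusted p = 0.0139) and with only the compared groups in the fit (0.0348). The second passed with the replicate block (adjusted p = 0.0199), the edgeR test (0.0496) and DESeq2 (0.0349). It also passed without library 1 of day 0, 3 or 7 (0.0176 to 0.0425).

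Among the day 3 libraries, Slc7a11, Gsr, Keap1, Txnrd1 and Gclm were all lowest in the first and highest in the second. The Ly6c-high monocyte markers summed to 2862 in the first, 4124 in the second and 3950 in the third. Signal of 4 neutrophil markers, of 6 listed, ran from 52.7 to 96.3 at day 0, 184 to 241 at day 3, 97.6 to 152 at day 7 and 60.1 to 64.4 at day 30. Most of this sum was Csf3r, with 47.8 to 54.7 at day 0 and 149 to 185 at day 3. Of the 4, 2 were higher and 0 lower at day 3 than at day 0. In the day 3 libraries the neutrophil sum was highest in the first (241) and lowest in the second (184), with 230 in the third. The part of either cell type in the day 3 levels was not tested.

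The 3 members of the thioredoxin branch, Txnrd1, Srxn1 and Prdx1, were higher than at day 0 at both day 3 and day 7. Txnrd1 (chr10:82833951-82897712, plus strand) encodes the cytosolic thioredoxin reductase. It had a signal of 26.8, 16.5 and 18.3 at day 0, 42.8, 54.5 and 51.0 at day 3, 44.8, 35.7 and 34.2 at day 7, and 31.5, 34.5 and 30.7 at day 30. Every library after injury was above the 3 of day 0, while neighbouring days after injury overlapped. The mean was 49.4 ± 6.01 at day 3, 38.2 ± 5.75 at day 7 and 32.2 ± 2.00 at day 30, and 20.5 ± 5.51 at day 0. The log2 fold changes against day 0 were 1.25 ± 0.19 at day 3 (adjusted p = 5.72e-05), 0.89 at day 7 (adjusted p = 0.00359) and 0.65 ± 0.19 at day 30 (adjusted p = 0.0489). The day 30 call lies at the threshold and was lost in 13 of 26 alternatives, with an adjusted p of 0.750 when the day 30 libraries were averaged, 0.0554 with the replicate block and 0.0553 with the edgeR test. It also ended without day 0 library 2 or 3, day 3 library 2 or 3, or any 1 day 30 library (0.0614 to 0.197).

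Srxn1 (chr2:152105516-152111376, plus strand) encodes sulfiredoxin, which repairs overoxidised peroxiredoxins. It had a signal of 8.32, 9.33 and 10.1 at day 0, 22.7, 25.6 and 26.5 at day 3, 19.7, 26.7 and 13.9 at day 7, and 9.44, 10.6 and 9.13 at day 30. The day 3 and day 7 libraries lay above all of days 0 and 30, which overlapped. At day 3 the mean was 24.9 ± 1.98, against 9.26 ± 0.915 at day 0, and the log2 fold change was 1.34 ± 0.21 (adjusted p = 9.94e-05). At day 7 it was 20.1 ± 6.42, and the log2 fold change was 0.997 against day 0 (adjusted p = 0.00372). At day 30 Srxn1 was lower than at day 7 by a log2 fold change of -0.93 (adjusted p = 0.00322), a call lost with the day 30 libraries averaged (0.106). The spread at day 7 was wide: the highest library was the second, whose 6 fibroblast markers summed to 2144, against 748 in the first and 530 in the third. Without it, day 7 was lower than day 3 (-0.56, adjusted p = 0.0220), and also with the first day 0 library left out too (adjusted p = 0.0180). With all libraries the log2 fold change was -0.34 (adjusted p = 0.194). The part of fibroblast RNA in these values was not tested.

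Prdx1 (chr4:116685544-116700822, plus strand) encodes peroxiredoxin 1, a peroxidase that thioredoxin keeps reduced. It had a signal of 260, 315 and 302 at day 0, 386, 403 and 508 at day 3, 534, 471 and 692 at day 7, and 304, 273 and 301 at day 30. Days 3 and 7 overlapped each other and lay above days 0 and 30, which also overlapped. The mean was 566 ± 114 at day 7 and 292 ± 28.5 at day 0, a log2 fold change of 0.94 ± 0.16 (adjusted p = 0.00100). The highest day 7 library was the one with the lowest fibroblast sum, and the part of fibroblast RNA in the Prdx1 values was not tested. At day 3 the mean was 432 ± 65.8 and the log2 fold change against day 0 was 0.56 ± 0.16 (adjusted p = 0.0121), a call lost after quantile normalisation (0.19, adjusted p = 0.387) and without the third day 3 library (0.44, adjusted p = 0.0732). Day 7 against day 3 gave 0.38 (adjusted p = 0.0709). That comparison passed without the second day 7 library (0.50, adjusted p = 0.0153) and without that and the first day 0 library (0.00845). It also passed without the third day 3 library (0.0410) and after quantile normalisation (0.66, adjusted p = 0.00518). Day 30 was lower than day 7 by a log2 fold change of -0.93 (adjusted p = 0.000677), which missed the threshold with the day 30 libraries averaged (0.0556). Processed pseudogenes of Prdx1 are near copies, with Gm21399 at 98.3% identity over 597 bases, so its reads can be split between them.

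**Figure D3:**
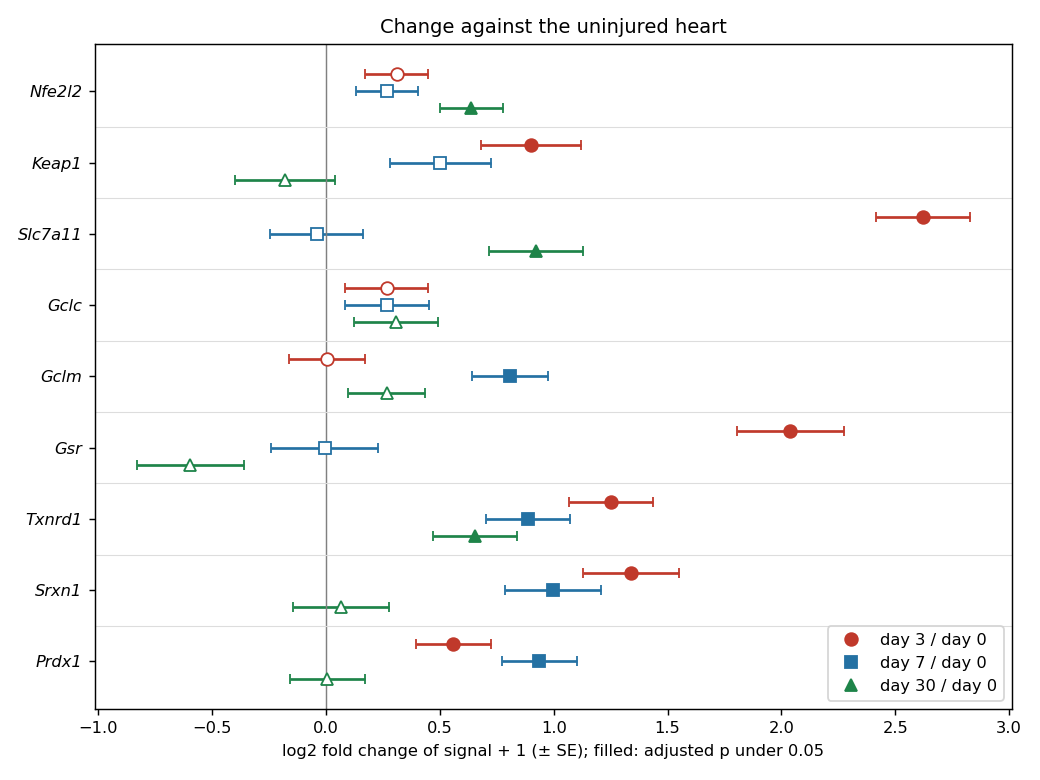
Log2 fold change of signal + 1 (horizontal axis, with bars for ± SE from limma, 3 libraries against 3) of the 9 members at day 3, day 7 and day 30, each against day 0. Filled symbols have an adjusted p under 0.05: 6 at day 3, 4 at day 7 and 3 at day 30. The day 3 values of Slc7a11 (2.62) and Gsr (2.04) lie farthest right, and their day 7 values lie at -0.04 and -0.01.

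Between the injured groups, the members split. At day 7, relative to day 3, Gclm was higher and Slc7a11 and Gsr lower, so 3 of 9 passed, where 23.3% of all genes were higher and 23.5% lower. The libraries of 4 members did not overlap, against 50.9% of all genes, and 5 members passed without the second day 7 library. Without that library 5708 genes passed in all, against 6032 with all libraries. At day 30, relative to day 7, Slc7a11 and Nfe2l2 were higher and Srxn1, Prdx1, Keap1 and Gclm lower, so 6 of 9 passed, where 19.7% of all genes were higher and 19.9% lower. The libraries of 7 members did not overlap, against 55.3% of all genes. No call of these 6 held with the day 30 libraries averaged, under which 815 genes passed in all. At day 30, relative to day 3, Gsr, Slc7a11, Srxn1, Keap1, Txnrd1 and Prdx1 were lower, with log2 fold changes of -2.64, -1.70, -1.27, -1.08, -0.60 and -0.55. These lower values make 6 of 9, where 19.2% of all genes were higher and 20.3% lower, and the libraries of 8 members did not overlap, against 62.4%. Of the 6, the calls of Txnrd1 and Prdx1 were lost with the day 30 libraries averaged (adjusted p = 0.215 and 0.202) and after quantile normalisation (0.115 and 0.402). The call of Txnrd1 also ended without day 3 library 2 or 3 or day 30 library 1 or 3 (0.0600 to 0.0767), and that of Prdx1 without day 3 library 3 (0.0870) or day 30 library 2 (0.0653).

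The order of the group means was not the same in all members. Slc7a11, Gsr, Srxn1, Txnrd1 and Keap1 were highest at day 3, Prdx1 and Gclm at day 7, and Nfe2l2 and Gclc at day 30. Between the highest group and the next, only Slc7a11 (day 30 against day 3), Gsr (day 7 against day 3) and Gclm (day 30 against day 7) passed the test. The other 6 did not pass, among them Nfe2l2 at day 30 against day 3 (log2 fold change of 0.33, adjusted p = 0.0709). That comparison passed in 6 of 26 alternatives: after quantile normalisation (0.70, adjusted p = 0.000598), with only the compared groups in the fit (0.00632), with DESeq2 (0.0327), without the first day 0 library (0.0444), without the second day 7 library (0.0333) and without both (0.00789).

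Other genes of the pathway are given from 6 lists with 101 entries, of which 97 were found and 94 tested, none of them among the 9 members. Their counts are read against the shares of all tested genes that passed, which were 22.1% higher and 22.1% lower at day 3 against day 0, 11.4% and 10.2% at day 7 against day 0, and 3.45% and 2.73% at day 30 against day 0. These shares were 23.3% higher and 23.5% lower at day 7 against day 3, and 19.7% and 19.9% at day 30 against day 7. Of 15 regulators and partners of NRF2, 6 were higher and 1 lower at day 3 than at day 0 (4 to 10 and at most 2 over 26 alternatives). Mafk, a small MAF partner of NRF2, had 37.8 ± 10.3 at day 3 and 8.40 ± 3.69 at day 0 (log2 fold change of 2.08, adjusted p = 1.96e-05). Bach1, a repressor that competes with NRF2 for the same elements, had 198 ± 38.8 at day 3 and 72.8 ± 7.14 at day 0 (1.42, adjusted p = 2.24e-06). At day 7 against day 3 both were lower, by log2 fold changes of -1.56 and -1.14, and 7 of the 15 were lower and 2 higher, a split that became 3 and 3 after quantile normalisation (3 to 8 lower and at most 3 higher over 26 alternatives). Against day 0, 3 of the 15 were higher at day 7, among them Sqstm1 (0.80, adjusted p = 0.00462), whose protein p62 binds KEAP1. That count of 3 was 1 without day 0 library 3 and with only the compared groups in the fit, and 2 without day 0 library 2, without day 7 library 2 or with the day 30 libraries averaged. Without the first day 0 and second day 7 libraries, 10 of the 15 were higher and 2 lower at day 3. In that fit 3503 of all genes were higher and 3376 lower, against 2852 and 2846 with all libraries.

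Of 30 tested glutathione genes outside the 9 members, 6 were higher and 7 lower at day 3 than at day 0, near the 22.1% and 22.1% of all genes, and the median log2 fold change was -0.22. Glrx, a glutaredoxin, was among the higher ones (2.29, adjusted p = 2.59e-07), as was Slc3a2, the heavy chain that pairs with the SLC7A11 protein (1.19, adjusted p = 2.96e-05). Glo1, a glyoxalase that uses glutathione, was lower (-1.45, adjusted p = 0.000635). The count of 7 lower genes was 4 with a filter on mean signal of at least 5 and 10 without the second day 7 library. That filter leaves genes of the list with lower signal untested, so its counts are out of fewer than 30 genes. At day 7, 11 of the 30 were higher than at day 0, 1 was lower and 18 did not pass, where 11.4% of all genes were higher and 10.2% lower. Relative to day 3, 16 were higher and 3 lower at day 7. With the same filter 10 of the genes still tested were higher. Gpx3, the secreted glutathione peroxidase, had 49.1 ± 25.5 at day 7 and 8.47 ± 2.50 at day 0 (2.33, adjusted p = 0.000173), and Gsto1, a glutathione transferase, had 19.8 ± 0.478 and 6.31 ± 2.39 (1.56, adjusted p = 0.000315). At day 30, 14 of the 30 were lower than at day 7, which became 2 with the day 30 libraries averaged. The phospholipid peroxidase gene Gpx4 was lower by a log2 fold change of -1.73 (adjusted p = 2.01e-05). Without the second day 7 library, 8 of the 30 were higher and 1 lower at day 7 than at day 0. The higher count was 7 without day 0 library 3, and 6 with only the compared groups in the fit or with the day 30 libraries averaged.

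Of 18 other genes of the thioredoxin and peroxiredoxin system, 5 were higher and 7 lower at day 3 than at day 0. Msrb1, which reduces oxidised methionine, had 140 ± 30.7 at day 3 and 18.5 ± 3.06 at day 0 (2.85, adjusted p = 9.32e-08). Prdx6, a further peroxiredoxin, had 110 ± 26.6 at day 3 and 17.04 ± 2.44 at day 0 (2.61, adjusted p = 2.75e-07). Txnip, whose protein binds and inhibits thioredoxin, was lower, with 109 ± 6.78 at day 3 and 686 ± 5.40 at day 0 (-2.64, adjusted p = 9.67e-10). At day 7, 4 of the 18 were higher than at day 0, Msrb1 and Prdx6 included (1.41 and 1.09). At day 30, 8 were lower than at day 7, which became 5 without any 1 day 30 library and 2 with the day 30 libraries averaged.

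The list of superoxide dismutases and catalase held 5 genes, which were Sod1, Sod2, Sod3, Cat and the copper chaperone gene Ccs. At day 3, Cat, the catalase, was lower than at day 0 (-1.31, adjusted p = 2.50e-05) and Sod2, the mitochondrial superoxide dismutase, higher (0.58, adjusted p = 0.0122), a call that ended after quantile normalisation and without day 0 library 3. At day 7, 2 of the 5 were higher than at day 0 with limma, edgeR and DESeq2, a count that rests on single libraries. Neither passed limma without the first day 0 library, without the first day 0 and second day 7 libraries, or with only the compared groups in the fit, although 2 had an unadjusted p under 0.05 in each. Of the 5, 1 passed without day 0 library 2 or 3 or day 7 library 2 or 3. With a filter on mean signal of at least 5, which leaves Sod3 untested, 1 was higher. Of 11 genes listed under NADPH supply, 4 were higher and 1 lower at day 7 than at day 0, where 11.4% and 10.2% of all genes passed. With only the compared groups in the fit 2 were higher, and at most 2 were lower in any alternative. Among the higher were Taldo1 (1.25, adjusted p = 0.00121), Pgls (1.01, adjusted p = 0.0123) and Tkt (0.84, adjusted p = 0.00905). All 3 are of the pentose phosphate pathway, in steps that do not themselves make NADPH. At day 30, 6 of the 11 were lower and 2 higher than at day 7, with Pgls, Taldo1 and Pgd lower by log2 fold changes of -1.63, -1.58 and -1.20. With the day 30 libraries averaged, 2 of the 11 were lower, and the higher count was 1 without day 7 library 2 or day 30 library 2 or 3.

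Of 15 tested genes of a list of other NRF2 targets, 3 were higher and 6 lower at day 3 than at day 0, where 22.1% of all genes were higher and 22.1% lower. Hmox1, the heme oxygenase, had 516 ± 107 at day 3 and 191 ± 89.6 at day 0 (1.499, adjusted p = 0.000365). Ephx1, the microsomal epoxide hydrolase, had 1.04 ± 0.513 at day 3 and 83.7 ± 1.12 at day 0 (-5.41, adjusted p = 2.77e-11), and Blvrb, a biliverdin reductase, 16.996 ± 2.03 and 80.1 ± 2.72 (-2.18, adjusted p = 7.86e-08). At day 7, 4 of the 15 were higher than at day 0 and 1 lower. Ftl1, the ferritin light chain, had 6300 ± 1914 at day 7 and 2385 ± 122 at day 0 (1.36, adjusted p = 0.000495). Ephx1 was lower than at day 0 in every group after injury, by -5.41, -1.81 and -0.996 at days 3, 7 and 30, the last of which did not hold with the day 30 libraries averaged. At day 30, 7 of the 15 were lower than at day 7 (2 with the day 30 libraries averaged) and 1 higher, and 4 were lower than at day 0. That count was 5 without the first day 0 and second day 7 libraries, 2 after median centring and without day 0 library 2 or day 3 library 3, and 1 without day 0 library 3 or any 1 day 30 library. None of the 15 passed limma with the day 30 libraries averaged, where 4 had an unadjusted p under 0.05, and with all libraries edgeR gave 3 and DESeq2 4 lower genes.

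**Figure D4:**
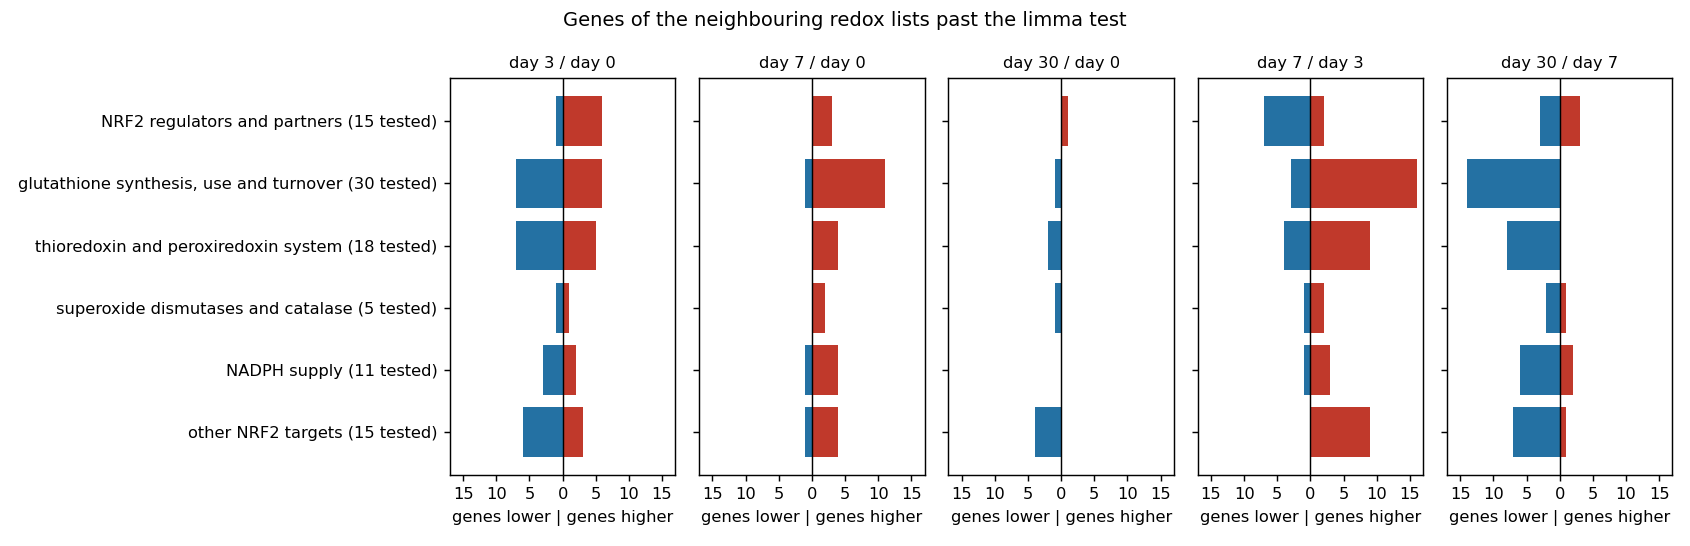
Number of genes in each of 6 redox lists that passed the limma test (adjusted p under 0.05), with higher genes to the right in red and lower genes to the left in blue, in 5 comparisons. The glutathione list has 6 higher and 7 lower genes at day 3 against day 0, 11 and 1 at day 7 against day 0, and 14 lower at day 30 against day 7.

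For each member, the genes with the most similar course over the 4 group means were found among 7028 genes that averaged 10 or more in signal, by the root mean square difference of centred log2 values. With only 4 points this is a description of the means. Nearest to Nfe2l2 was Fam177a (0.00759), to Keap1 Vav1 (0.0218), to Gclm Ly86 (0.0557) and to Gclc Sms (0.0264). Txnrd1 was closest to Tctex1d2 (0.0245) and Prdx1 to Dad1 (0.0443). Srxn1 lay closest to Psmd8 (0.0388), a subunit of the proteasome, which had 98.8 at day 3 and 37.8 at day 0, and next but 1 to Il4ra (0.0630), a chain of the interleukin-4 receptor. For Slc7a11 they were Klra2 (0.1004), Slfn9 (0.134) and Ifih1 (0.136), and for Gsr they were Emilin2 (0.0923), Ifitm3 (0.110) and Oas1g (0.127). Ifitm3 averaged 2395 at day 3 and 635 at day 0, and Ifih1 418 and 58.0.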

How the data were processed

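RNA-seq was measured in 12 libraries of sorted mouse heart cells. Per the submitters' processing notes, cutadapt 1.3, RSEM 1.2.20, edgeR 3.14.0 and the build GRCm38 were used. The deposited table gives a linear normalised signal per gene and the log2 of that signal with values below 1 set to 0, and the log2 values equalled this within 1e-06 in 100% of cells. Whole reads were recovered from 100% of the signal values within 0.02 reads. Depth was 5828904 to 13199576 reads. The limit behind a value of 0 is 3 reads, or 0.190 to 0.543 in signal by library, for counting error only. Genes were annotated with GENCODE M21, and 14232 identifiers (98.4%) were in the gene name table.

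Log2(signal + 1) was fitted for the 12879 genes that averaged 1 or more in signal with limma 3.58.1 in R 4.3.3 (trend, 4 group means, 8 residual degrees of freedom). Tests were two-sided with the Benjamini-Hochberg adjustment over all genes of a comparison and a threshold of 0.05. The p-values measure only the spread between these libraries. The fit was first checked on simulated counts. Reported error is SD over 3 libraries or the SE of the fit. All 9 members are described. From each list up to 3 genes that passed, by size of change and averaging 10 or more in signal, could be named in a comparison, and for likeness the 3 nearest genes. The alpha tubulins were added after their values were seen. Alternatives were other pseudocounts, filters, scalings and priors, a replicate block, only the compared groups, the deposited log2 values, left-out libraries, day 30 averaged, and edgeR 4.0.16 and DESeq2 1.42.0 on recovered reads. All alternatives for day 30 against day 3 and for the counts of the lists were added after the data were seen. Promoter sequences are from RefSeq. The members and lists were chosen with earlier results of these data known.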

Additional observations from a re-analysis of the deposited data

How the results depend on the processing

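Each of 54 member fold changes was recomputed under 26 alternatives. Of 1404 values, 1289 kept their direction and side of the threshold, 57 lost a call, 25 gained one, and 33 turned the direction of a value that had not passed. The higher levels of Slc7a11, Gsr, Srxn1, Txnrd1 and Keap1 at day 3 and of Srxn1, Prdx1, Txnrd1 and Gclm at day 7, all against day 0, held in all 26. Replicate numbers do not pair the libraries: over 18 same-numbered pairs the deviations from the group mean had a median r of 0.00490 (-0.0831 to 0.210), and over 36 other pairs -0.00690. With the replicate block, 5725, 2850, 835, 6040, 5144 and 5110 genes passed for days 3, 7 and 30 against 0, day 7 against 3 and day 30 against 7 and 3, and with edgeR on recovered reads 5610, 2595, 755, 5965, 5076 and 5066. The block ended the calls of Txnrd1 at day 30 against day 0 and Nfe2l2 at day 30 against day 7, and added Gsr there. The cause of these changes was not tested.

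The genes that passed at day 7 against day 0 (2782) became 1158 with only the compared groups, which has fewer samples, and 1740 with day 30 averaged. At day 30 against day 0, 796 became 2674 with only the compared groups, 1328 with DESeq2, 2504 without the first day 0 and second day 7 libraries, and 14 with day 30 averaged, when 0 members passed by limma (3 at an unadjusted p under 0.05). With 1 library left out they were 233 to 1995, with 0 to 3 members (3 or 4 unadjusted where 0 passed). At day 7 against day 3, the 3 members became 5 without those 2 libraries, and 3 to 5 with 1 left out. At day 30 against day 7 they were 3 to 7 with 1 left out, and with day 30 averaged 815 genes and 0 members passed by limma (3 unadjusted), where 7 members passed with edgeR and with DESeq2 on all libraries. Against day 3, 5079 genes became 2013 with day 30 averaged. An averaged day 30 leaves 1 sample, which is assumed to vary like the other groups.

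Directions turned only in values that had not passed. At day 3 against day 0, Nfe2l2 was -0.070 after quantile normalisation, and Gclm -0.044 with that, -0.0145 with edgeR, -0.018 with DESeq2 and -0.15 to 0.12 with 1 library left out. At day 7 against day 0, Gsr was 0.0052 with DESeq2 and -0.20 to 0.20 with 1 left out, and Slc7a11 0.064 without the 2 libraries and -0.16 to 0.14 with 1 left out. At day 30 against day 0, Srxn1 was -0.0034 and Prdx1 -0.075 without the 2 libraries. With 1 left out, Srxn1 was -0.0034 to 0.13, Prdx1 -0.075 to 0.061 and Keap1 -0.31 to 0.012. At day 7 against day 3, Nfe2l2 was 0.32 after quantile normalisation. Gclc there was -0.000938 after quantile normalisation, -0.087 with median centring, -0.0134 with edgeR, -0.00536 with DESeq2, -0.042 without the 2 libraries and -0.081 to 0.11 with 1 left out. With 1 left out it was -0.072 to 0.11 at day 30 against day 7 and -0.042 to 0.14 against day 3. Low reads limit Slc7a11 and Keap1, which had 35 and 53 in their lowest libraries.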
